A study of Schizocosa ocreata with 10 samples.

Results

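The genes described here encode trypsin-like serine proteases of the wolf spider Schizocosa ocreata. A gene was included when its annotation held the Pfam trypsin domain (PF00089) or the name of the Drosophila gene CG6865 and it had counts, which gave 66 of 25922 genes. All 66 carry the domain, and 5 of them have CG6865 as their named match. Their expression was read from mRNA of the brains of individual spiders, collected in the field, in 2 mature male, 3 mature female, 3 immature male and 2 immature female libraries. Libraries keep the replicate numbers of their labels, so that the mature males are numbers 2 and 3 and the immature females are numbers 2 and 3. Mature (adult) spiders had molted to maturity 24 hours before dissection. Immature (subadult) spiders were not matched for age, and how long they were from their next molt was unknown. The esophagus runs through the spider brain, and some of its tissue may be in the samples.

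Trypsin-like proteases cut other proteins by means of a catalytic serine of their own, and most are made as inactive precursors that a further cut switches on. Arthropods use some of them to digest food and others in chains of proteases that clot hemolymph, activate phenoloxidase or release the ligand Spaetzle for Toll receptors. A further set sits at the cell surface or in the cuticle and takes part in shaping bristles, tracheae and muscle attachments in Drosophila. Serpins and the small Kunitz, Kazal and trypsin inhibitor-like proteins block them. Spiders digest prey outside the body, and venoms of spiders and bees also hold members of this family.

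The libraries held 3481348 to 11789754 counted reads each. All 50 genes of a neuronal list and all 6 of a glial list had counts in every library, and the neuronal list held 0.557 to 1.29% of reads. A muscle list of 33 genes held 6.81 to 15.5%. Levels are given in CPM, the counts of a gene in every 1000000 counts of the library size after TMM scaling. A gene was called at an adjusted p under 0.05 (Benjamini-Hochberg, 24930 genes) in the quasi-likelihood test of edgeR, and fold changes are fitted log2 values. Each SE was taken from the fit as the size of the log2 value over the root of F. In brain tissue measured in bulk, fewer cells of a type and less RNA per cell cannot be told apart. Immature male 2 stood apart from the other immature males, with a correlation of log2 CPM over genes of 0.839 and 0.829 against 0.914 between immature males 1 and 3, and immature females 2 and 3 correlated at 0.873.

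The coding sequences of the 66 genes were 309 to 3129 nucleotides long, with a median of 762. The trypsin domain spanned 30 to 259 residues and reached 200 residues or more in 31 genes. A signal peptide was predicted in 18 genes. The coding sequences of 15 genes overlap another counted gene on their contig. No other domain searched for was found in 55 genes, 6 held the domain of unknown function DUF1986, and 3 each held low-density lipoprotein receptor class A repeats or sushi repeats. CLIP domains, which regulate many insect cascade proteases, were listed in none. By best Swiss-Prot match, 21 genes resembled cell surface and developmental proteases, 19 arthropod clotting and immune proteases, 10 digestive and mast cell proteases, 8 venom proteases, 4 vertebrate clotting factors and 2 complement proteins. One gene matched mitochondrial HTRA2 and 1 had no match. These classes were drawn up after the annotation was seen. Names below belong to the closest protein found in another animal and do not establish a function in the spider.

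Expression of the family was uneven. The mean level over the 10 libraries ran from 0.0922 CPM (Gene025603) to 217 CPM (Gene002109), and 30 genes reached a mean of 10 CPM. The distance between the lowest and the highest library had a median of 4.06 on the log2 scale over the 61 genes tested, against 1.56 over all 24930 genes tested. It was above 5 in 26.2% of the tested trypsin genes and in 4.3% of all tested genes. The source of the sequence moved with this pattern, and its part in it was not tested. For 32 genes the sequence came from the assembly of a single library (13 from immature male 3, 8 from immature female 2), and 24 of these 32 genes had their highest CPM in the library that supplied the sequence. No matching share over all genes was taken for the source libraries. The highest library was immature male 3 for 15 of the 66 genes (22.7%, against 12.7% of all tested genes) and immature female 2 for another 15 (22.7%, against 16.8%).

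**Figure D1:**
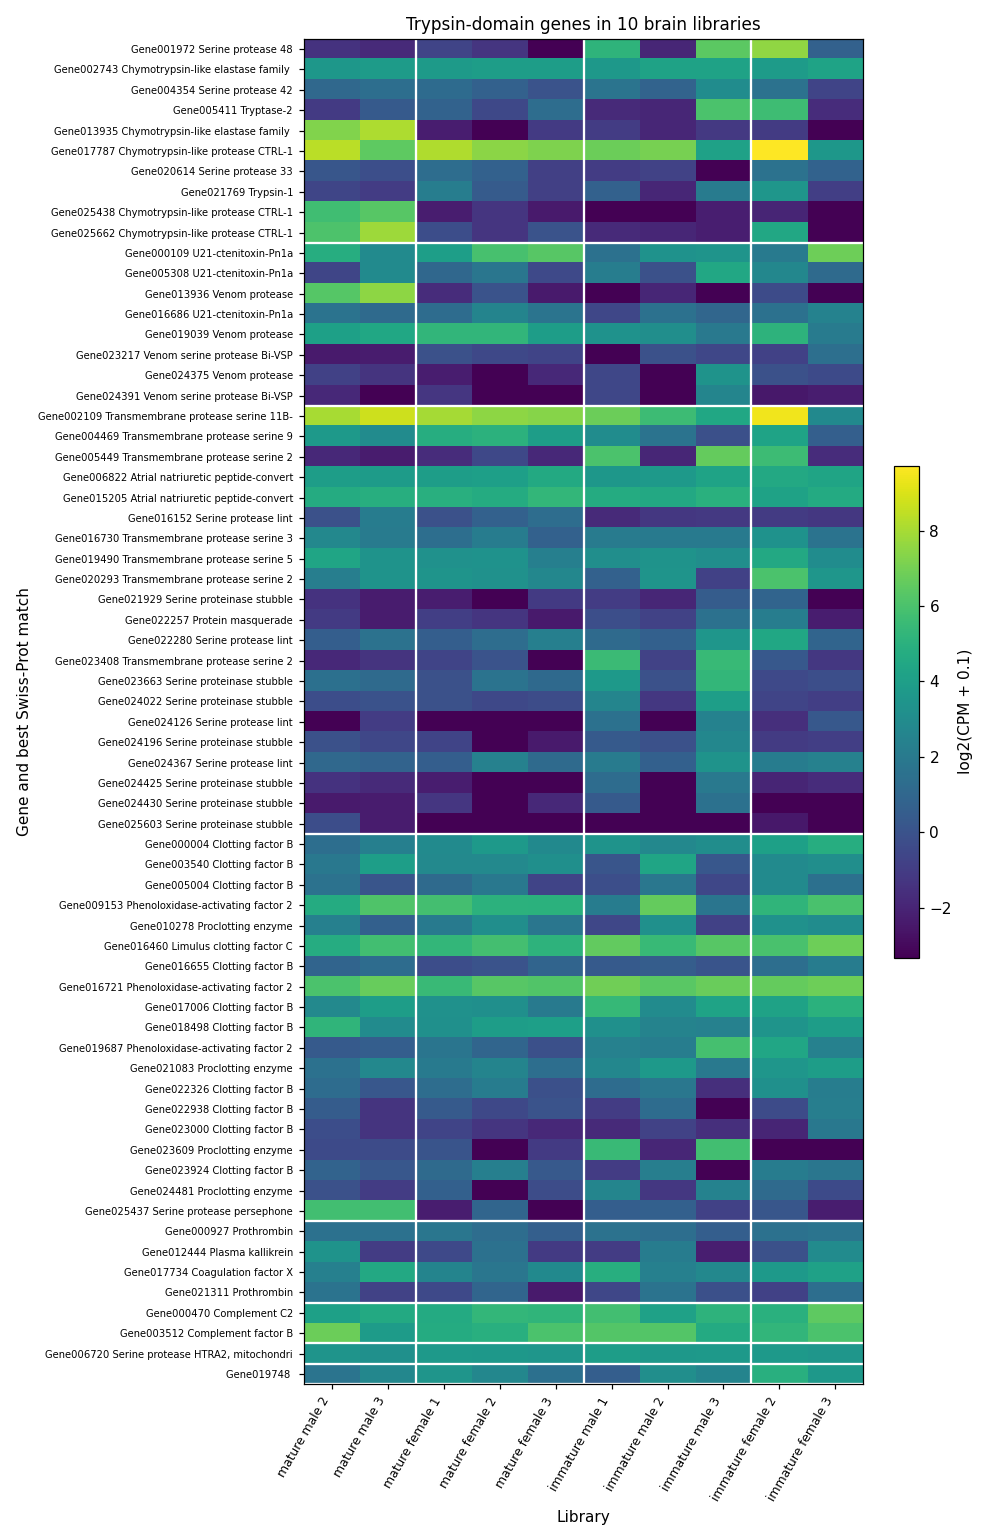
Level of each of the 66 trypsin-domain genes (rows, grouped by the class of their best Swiss-Prot match) in each of the 10 brain libraries (columns), as log2 of CPM plus 0.1. White lines separate the sex and stage groups and the classes. Gene013935, Gene013936, Gene025437, Gene025438 and Gene025662 are bright in both mature males, and Gene002109 and Gene017787 are bright in most libraries.

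The most marked sex and stage difference was a set of proteases that were abundant in both mature male brains. They were nearly silent elsewhere, except for Gene025662 with 22.8 CPM in immature female 2. In mature brains, 3 of the 61 tested genes were higher in males and none was lower, where 0.0361% of all tested genes were called higher and 0.00401% lower. In males, 2 of the same genes were higher in mature than in immature brains and none was lower, against 0.00802% of all tested genes called higher and 0.0% lower. These were all the genes called in males, and 3 of the 9 called higher in mature males than in mature females. The called genes, Gene013935, Gene013936 and Gene025438, passed the count filter only through the mature males, the group in which they were high. Their calls and the shares beside them are therefore a description and no independent support.

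Gene013935 had its best match to chymotrypsin-like elastase family member 2B, a pancreatic digestive enzyme in humans. It had 1613 and 2808 counts in mature males and 1, 0 and 4 counts in mature females. Immature males had 2, 1 and 3 counts and immature females 5 and 0. No library outside the mature males went above 0.395 CPM, so the groups did not overlap. Summed over libraries and scaled by library size, its level was 1000 times that of mature females (95% counting interval 429 to 3090) and 692 times that of immature males (318 to 1890). The fit gave a log2 fold change of 9.94 for mature males against mature females (SE 0.82, adjusted p = 0.00359, edgeR) and of 9.38 for mature against immature males (SE 0.79, adjusted p = 0.00905, edgeR).

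Gene025438, matching chymotrypsin-like protease CTRL-1, behaved likewise. Mature males had 569 and 819 counts, mature females 1 each, immature males 0, 0 and 1, and immature females 2 and 0. The ratio was 524 against mature females (179 to 2540) and 1300 against immature males (234 to 51500). Its adjusted p was 0.00299 for mature males against mature females (log2 fold change 8.84, SE 0.69) and 0.00673 for mature against immature males (10.02, SE 0.75), both from edgeR. Intervals cover counting error only, and fitted values of genes with so few counts in a group depend on the prior count.

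Gene013936, with a best match to the venom protease of a bumblebee, had 836 and 1831 counts in mature males against 2, 3 and 1 in mature females. Immature males had 0, 1 and 0 counts, and immature females had 9 and 0. It was called in mature brains (log2 fold change 8.76, SE 1.04, adjusted p = 0.0353, edgeR) but not between mature and immature males (10.93, SE 1.21, adjusted p = 0.0626, edgeR). The matching ratios were 504 (231 to 1370) and 2500 (449 to 98900). Again no other library came near the mature males.

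A further pair were also highest in both mature males without passing the quasi-likelihood test. Gene025437 matches persephone, a Drosophila protease that acts upstream of Toll. It had 579 and 547 counts in mature males, 1, 6 and 0 in mature females, 7, 9 and 4 in immature males, and 13 and 1 in immature females. Its ratio was 182 (88.2 to 454) in mature brains and 52.9 (34.1 to 86.9) in males, with adjusted p of 0.396 and 0.544 in edgeR's quasi-likelihood test and of 0.000638 and 0.00391 in its likelihood ratio test.

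Gene025662, another CTRL-1 match, had 714 and 2293 counts in mature males, 7, 1 and 10 in mature females, and 1 in each immature male. Immature female 2 had 292 counts of it and immature female 3 had 0. The mature males were therefore above the other libraries, but the lower of them was only 2.92 times immature female 2. The quasi-likelihood test of edgeR gave adjusted p = 0.872 in mature brains (log2 fold change 7.63, SE 1.55) and 0.488 in males (9.76, SE 1.80). Without immature female 2 the log2 fold changes were 7.64 and 9.80, and without immature female 3 they were 7.63 and 9.76. Each of these fits keeps 1 immature female, so the spread between the immature females no longer enters it. Gene025603, a fragment matching Stubble, was also highest in the mature males, with 8 and 1 counts against 0 in each mature female and each immature male, and 1 and 0 in the immature females. It had too few counts to be tested.

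**Figure D2:**
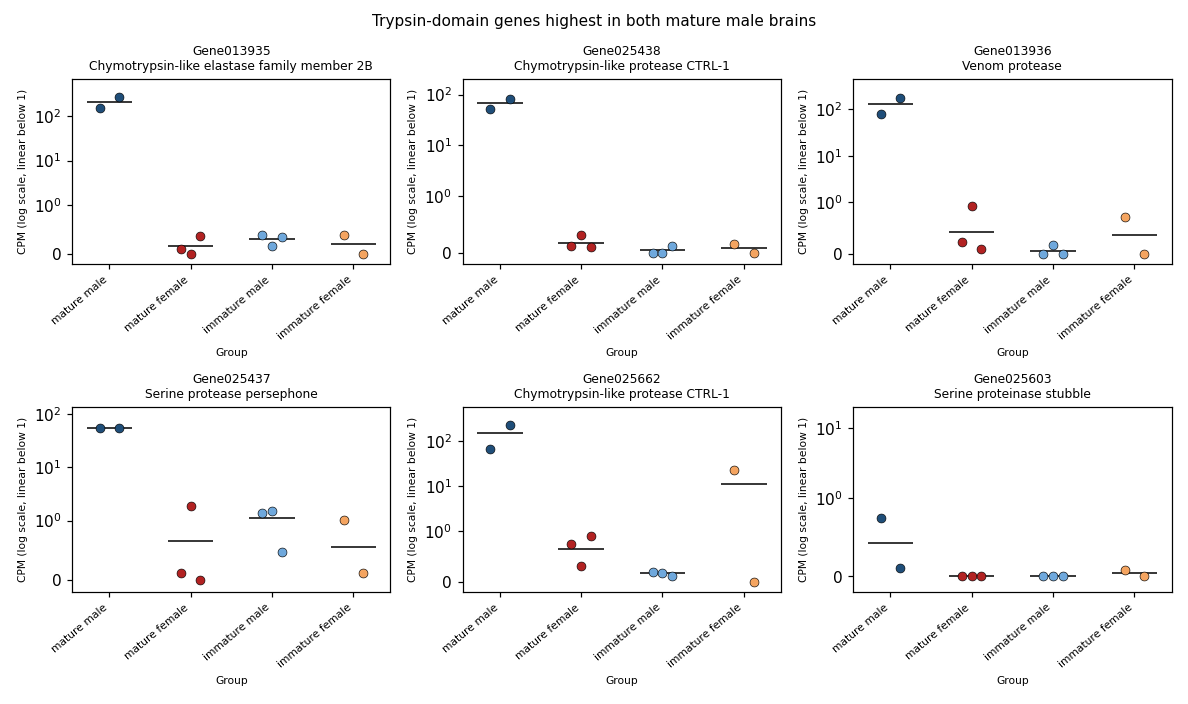
CPM of the 6 genes whose level in both mature males was above every other library, by group from mature male to immature female (log scale above 1 CPM, linear below). Points are libraries and horizontal lines are group means. Gene013935 stands at 150 and 276 CPM in mature males and at no more than 0.395 CPM in the other 8 libraries, while Gene025662 also has 22.8 CPM in immature female 2.

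Counted over the whole table, both mature males were above the other 8 libraries in 6 of the 66 genes (9.09%) and in 1.05% of all tested genes. A gap of more than 10 times was found in 4 of 24930 tested genes, and those were Gene013935, Gene013936, Gene025437 and Gene025438. This pattern was chosen after the values were seen and is a description. The genes most like Gene025438 over the 10 libraries (Pearson correlation of log2 CPM) were Gene013936 (0.987), Gene013935 (0.980), Gene014889 (0.944), Gene014782 (0.934), a match to the sodium-driven chloride bicarbonate exchanger Ndae1, and Gene017030 (0.928), a match to the lysosomal protease cathepsin B. For Gene013935 they were Gene025438 (0.980), Gene013936 (0.956), Gene018124 (0.932), a match to Mes2, Gene015610 (0.924) and Gene014889 (0.920). Gene014889, named after CG8773 and not a member of the family, was also nearly limited to mature males. It had 42 and 264 counts in mature males (3.92 and 26.0 CPM) and at most 7 in any other library. The correlations describe 10 libraries, of which the 2 mature males stand far from the rest.

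The models of these proteases are related in form. Gene013935 has a signal peptide and a domain of 231 residues, while Gene013936, Gene025437, Gene025438 and Gene025662 have no predicted signal peptide and domains of 107, 166, 131 and 170 residues. On the minus strand of their contigs the coding sequences of Gene013935 (bases 125 to 955), Gene013936 (125 to 505) and Gene025437 (125 to 676) stop at the same base, and that of Gene025662 (124 to 735) stops next to it. Gene025437 and Gene025438 are alternative transcripts of 1 component in the assembly of mature male 2. The sequence of Gene025662 came from the assembly of mature male 3, and those of Gene013935 and Gene013936 came from the consensus assembly. Reads of near-identical copies can be split among such models, so the count of each is uncertain. How alike the sequences are was not measured here, so the number of separate genes behind these models is not known. The counts and shares of genes high in mature males may therefore hold 1 gene more than once.

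Tissue lists did not set the mature males apart in the same way. Venom toxin domains (7 genes) held 0.00797 and 0.0168% of reads in mature males, within the 0.0074 to 0.039% of the other libraries. Digestive enzymes of other families (68 genes) held 0.345 and 0.268%, within 0.213 to 0.562%. Haemocyanin (5 genes) held 0.306 and 0.0121%, within 0.0105 to 1.58%, and cuticle proteins (94 genes) held 0.878 and 0.219%, within 0.0528 to 0.879%. The photoreceptor list (13 genes) was at 0.104 and 0.13%, within 0.087 to 0.263%, and the muscle list was at 10.2 and 11.5%, within its range in the other libraries.

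Calls in mature males rested on few spiders. In mature brains Gene013935 (adjusted p = 0.0653, edgeR) and Gene025438 (0.0585) were not called without mature female 1, while both were called without any other single library. Gene013936 lost its call there whichever mature female or immature male was left out, with an adjusted p of 0.0633 to 0.39. For mature against immature males it was called without immature male 2 (0.0281). It was not called without another immature male or a mature female (0.0788 to 0.563). Fits without an immature female or a mature male keep 1 library of that group, whose spread then no longer enters them. The p-values of Gene013936 in those fits are not given. In males, leaving out immature male 1 or immature male 3 ended both calls, with adjusted p of 0.113 and 0.12 for Gene013935 and of 0.0669 and 0.114 for Gene025438. The fitted direction of these genes did not turn in any of these settings.

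The most abundant trypsin genes spread widely among immature brains. Gene002109 (best match transmembrane protease serine 11B-like protein, named after CG6865) and Gene017787 (match to CTRL-1, with a signal peptide) averaged 217 and 214 CPM and together held 37.5% of all trypsin reads. Per kilobase of coding sequence they were also the highest, at 253 and 247 CPM per kb, followed by Gene016721 at 71.2 and Gene013936 at 68.3.

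Gene002109 had 261 and 426 CPM in mature males and 247, 183 and 164 CPM in mature females. Immature males had 109, 49.1 and 21.6 CPM, and immature females 703 and 7.22 CPM. All mature brains were above every immature brain except immature female 2, and the immature females held both the highest and the lowest value. The difference between males and females in immature brains was -2.57 on the log2 scale (SE 1.24, adjusted p = 0.873, edgeR), and without immature female 2 it was 3.02. Gene017787 had 335 and 88.5 CPM in mature males, 283, 173 and 146 in mature females, 109, 132 and 17.3 in immature males, and 846 and 12.1 in immature females. For this gene the same difference was -2.32 (SE 1.29, adjusted p = 0.921, edgeR), and 2.80 without immature female 2.

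Gene019039 (venom protease match) and Gene004469 (transmembrane protease serine 9 match, the only gene with 2 trypsin domains), both picked out after their values were seen, shared the low immature libraries. Gene004469 had 12.8 and 7.78 CPM in mature males, 27.8, 32.9 and 15.4 in mature females, 8.1, 3.01 and 0.818 in immature males, and 19.1 and 1.42 in immature females. Gene019039 ran from 3.74 CPM in immature male 3 to 39.0 CPM in mature female 2. Astacins, metalloproteases that spiders use in digestion, moved with these genes. Their 17 genes held 0.0709 and 0.071% of reads in mature males, 0.219, 0.162 and 0.116% in mature females, 0.0503, 0.0516 and 0.0189% in immature males, and 0.314 and 0.0168% in immature females. Their part in the levels of the trypsin genes was not tested.

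All 66 genes together held 0.163 and 0.195% of the reads of mature males, and 0.0885, 0.0885 and 0.0797% of those of mature females. Immature males had 0.104, 0.0747 and 0.101%, and immature females 0.287 and 0.0898%. The mature males did not overlap the mature females or the immature males, whereas immature female 2 was higher than any other library. Gene013935, Gene013936, Gene025437, Gene025438 and Gene025662 made up 26.6 and 44.2% of the trypsin reads of mature males and 0.0122 to 0.968% in the other libraries. Gene002109 and Gene017787 made up 59.8% in immature female 2 and 2.16% in immature female 3.

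**Figure D3:**
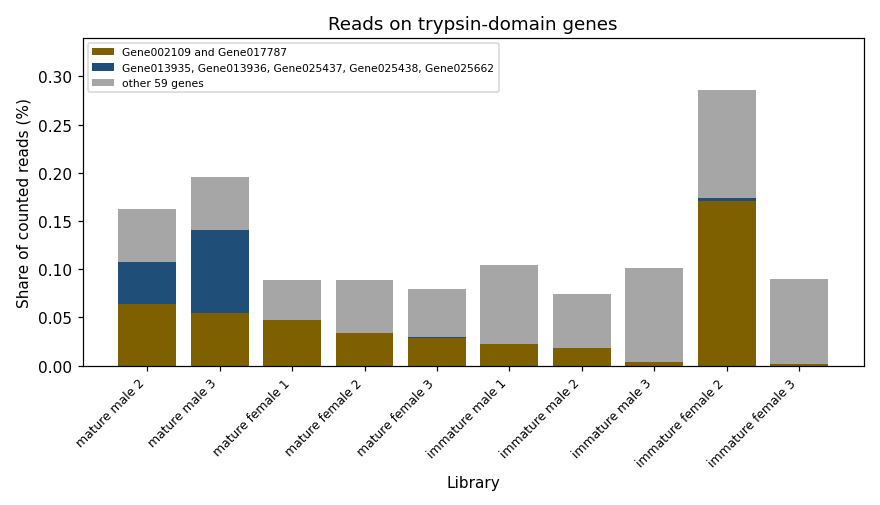
Share of all counted reads (%) on the 66 trypsin-domain genes in each library, from mature males on the left to immature females on the right, stacked from Gene002109 and Gene017787, the 5 genes abundant in mature males, and the other 59 genes. The stacks reach 0.163 and 0.195% in mature males and 0.287% in immature female 2, and the 5 genes make up a wide band in mature males and a thin one in immature female 2.

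Another group of genes was high in some immature brains and close to absent in every mature one. Gene001972, matching human serine protease 48 and CG6865, had 3 and 2 counts in mature males and 5, 1 and 0 in mature females. Immature males had 180, 1 and 745 counts, and immature females 2438 and 14. Immature male 2 was thus as low as the mature brains. Mature females were at 0.00227 of the level of immature females (0.000833 to 0.00495), a ratio that rested on immature female 2 and was 0.166 (0.0522 to 0.459) without it, and mature males at 0.00507 of that of immature males (0.00164 to 0.0119). Over both sexes the fitted log2 difference was -7.89 (SE 1.85, with an adjusted p of 0.191 in edgeR's quasi-likelihood test and 0.00169 in its likelihood ratio test). The adjusted p of the quasi-likelihood test ran from 0.044 (without immature male 2, the only setting with a call) to 0.567 (without immature female 2) when 1 library was left out.

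Gene005449, with a match to transmembrane protease serine 2, a protease of mammalian epithelia, had the same libraries at the top. It had 2 and 1 counts in mature males, 2 in each mature female, 336, 1 and 840 in immature males, and 628 and 2 in immature females. The fitted log2 difference for mature against immature over both sexes was -7.44 (SE 1.82, adjusted p = 0.195, edgeR), and the adjusted p again ran from 0.0439 without immature male 2 to 0.63 without immature female 2. Gene023408, with the same match, had 2 and 3 counts in mature males, 5, 3 and 0 in mature females, 239, 3 and 381 in immature males, but only 14 and 3 in immature females. Here immature males 1 and 3 alone were high. Male against female in immature brains it had a ratio of 41.0 (25.4 to 70.9) and an adjusted p of 0.669 in edgeR, or 0.0356 without immature male 2. That setting leaves out the immature male with few counts, and the share of all tested genes called rose from 0.0321 to 0.542%. No trypsin gene was called in this comparison without immature male 1 or without immature male 3.

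Smaller members followed. Gene022257 matches masquerade, a catalytically inactive relative that stabilizes muscle attachment in Drosophila. It had 0.373 and 0.0984 CPM in mature males, 0.429, 0.307 and 0.0903 in mature females, 0.79, 0.501 and 2.8 in immature males, and 4.6 and 0.109 in immature females. Gene021929 matches Stubble in Swiss-Prot (55.2% identity) and is named after Notopleural (70.87%). It peaked at 1.72 CPM in immature female 2 and 1.29 CPM in immature male 3 and stayed at or below 0.395 CPM elsewhere. Gene005411 (tryptase-2 match, named after Stubble) had 65.2 CPM in immature male 3 and 51.7 CPM in immature female 2, with 0.373 and 1.18 CPM in mature males, 1.61, 0.615 and 2.44 in mature females, 0.198 and 0.167 in the other immature males and 0.219 in immature female 3. None of these was called in any comparison by edgeR's quasi-likelihood test.

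Immature female 2 and immature males 1 and 3 were the 3 highest libraries for 7 of the 66 genes (10.6%) and for 8.81% of all tested genes, so this pattern was about as frequent outside the family. The same libraries were highest for both genes matching the hormone receptor Hr4, which acts in the ecdysone response of Drosophila. Gene001811 had 5.13 and 1.97 CPM in mature males, 1.93, 4.0 and 2.17 in mature females, 505, 1.34 and 668 in immature males, and 143 and 1.42 in immature females. Whether the time to the next molt had a part in the levels of the proteases was not tested.

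**Figure D4:**
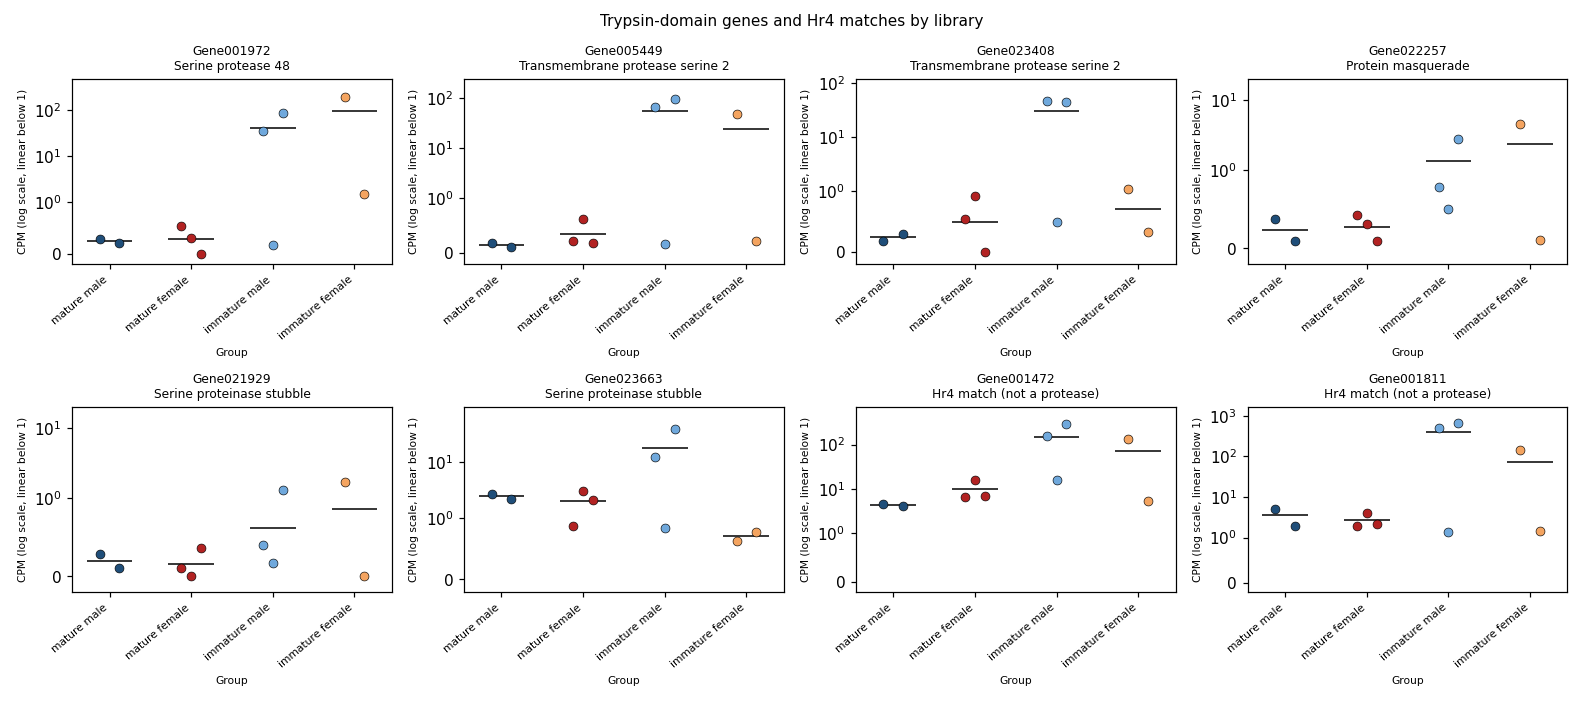
CPM by group (log scale above 1 CPM, linear below) of 6 trypsin-domain genes high in some immature libraries and of the Hr4 matches Gene001472 and Gene001811, which are not proteases. Points are libraries and horizontal lines are group means. For Gene001972, Gene005449 and both Hr4 matches, immature males 1 and 3 and immature female 2 lie above the other libraries, while Gene023663 is high in immature males 1 and 3 only.

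Several models resembling cuticle and epithelial proteases were highest in immature male 3, some of them with few counts in immature male 1. Stubble is a membrane-bound protease needed for bristle and leg shape in Drosophila. Gene024425 and Gene024430 match residues 538 to 646 and 648 to 785 of the fly protein with 71.56 and 70.29% identity, and Gene024196 matches residues 659 to 787 with 72.73%. The first pair do not overlap on the fly protein, and whether they are pieces of 1 gene was not tested. All of them had their highest count in immature male 3, whose assembly supplied the sequences. Gene024425 had 3 and 2 counts in mature males, 1, 0 and 0 in mature females, 12, 0 and 32 in immature males, and 2 and 2 in immature females. Gene024430 had 1 count in each mature male, 3, 0 and 2 in mature females, 6, 0 and 24 in immature males, and 0 in both immature females. Gene024196 had 9 and 6 counts in mature males, 5, 0 and 1 in mature females, 6, 5 and 55 in immature males, and 5 and 4 in immature females. For Gene024196 immature male 1 was at 1.19 CPM, against 0.839 and 0.591 CPM in mature males. The adjusted p of Gene024425, Gene024430 and Gene024196 for male against female in immature brains was 0.771, 0.669 and 0.752 in edgeR.

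Gene023663 and Gene024022 match Stubble in Swiss-Prot and CG8172 in Drosophila, and their values led to their choice. Gene023663 had 29 and 22 counts in mature males, 8, 10 and 23 in mature females, 64, 5 and 340 in immature males, and 8 and 7 in immature females. Its ratio for male against female in immature brains was 30.5 (18.3 to 55.1), with an adjusted p of 0.666 in edgeR, or 0.0277 without immature male 2. Gene024022 had a ratio of 17.1 (9.32 to 34.9) in the same comparison and an adjusted p of 0.666, or 0.0178 without immature male 2. In both genes immature male 2 was below the mature males. Leaving it out raised the share of all tested genes called in this comparison from 0.0321 to 0.542%. No trypsin gene was called there without immature male 1 or without immature male 3.

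Lint and Notopleural take part in the formation of tracheal tubes in Drosophila. The closest matches by identity were Gene022280 to Lint (65.22%) and Gene021929 to Notopleural (70.87%). Both were highest in immature female 2 (21.8 and 1.72 CPM), followed by immature male 3 (11.3 and 1.29 CPM). Gene016152 and Gene024126 match less closely, at 35.39% to Notopleural and 43.1% to Lint. Gene016152, named after Notopleural, had 9 and 44 counts in mature males, 8, 5 and 27 in mature females, 1, 2 and 3 in immature males, and 5 and 3 in immature females. Its CPM in every mature library was above that in every immature library. The log2 difference over both sexes was 2.58 (SE 0.58, with an adjusted p of 0.174 in edgeR's quasi-likelihood test and 0.00883 in its likelihood ratio test), and it ran from 1.78 to 3.00 without 1 library. Gene024126, a Lint match, had 0 and 4 counts in mature males, none in mature females, 14, 0 and 47 in immature males and 3 and 10 in immature females. Its adjusted p for mature against immature over both sexes was 0.279 in edgeR. It overlaps Gene024375 and Gene024391 on the fly protein CG8170. Neither of these passed the count filter, and immature male 3 held 73.7 and 83.9% of their counts.

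Of the 19 proteases resembling clotting and immune cascades, Gene016721 was the most abundant and had the smallest range over libraries, 1.37 on the log2 scale, while the others ranged from 2.1 to 7.89. Gene016721 matches phenoloxidase-activating factor 2 and had 66.2 and 104 CPM in mature males, 45.3, 79.9 and 72.0 in mature females, 118, 82.9 and 106 in immature males, and 98.3 and 116 in immature females. Gene016460 matches Limulus factor C, the sensor of bacterial endotoxin in horseshoe crabs. It had 26.9 and 54.6 CPM in mature males, 39.2, 56.0 and 34.6 in mature females, 95.6, 43.8 and 80.5 in immature males, and 62.0 and 116 in immature females. For mature against immature over both sexes the log2 difference was -0.95 (SE 0.32, adjusted p = 0.263, edgeR), with overlap through immature male 2.

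Gene000004 matches clotting factor B, which acts in the horseshoe crab clotting chain, and was ordered by both sex and stage. It had 2.52 and 4.92 CPM in mature males, 7.4, 12.9 and 7.22 in mature females, 10.3, 6.68 and 8.41 in immature males, and 16.9 and 27.6 in immature females. Mature males lay below all other libraries and immature females above them. Male against female over both stages the log2 difference was -1.34 (SE 0.30, with an adjusted p of 0.754 in edgeR's quasi-likelihood test and 0.0501 in its likelihood ratio test). For mature against immature it was -1.24 (SE 0.30, adjusted p = 0.195 and 0.0275). Neither comparison passed the quasi-likelihood test.

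Gene023609, a proclotting enzyme match, was found in 2 of the 3 immature males. It had 7 and 7 counts in mature males, 9, 0 and 4 in mature females, 232, 1 and 471 in immature males and 0 in both immature females. Against a floor of 3 counts over the immature females, the immature males were at least 263-fold higher. The adjusted p for male against female in immature brains was 0.662 in edgeR's quasi-likelihood test, 0.00525 in its likelihood ratio test and 0.00907 in the quasi-likelihood test without immature male 2. This last setting leaves out the immature male with 1 count, and 0.542% of all tested genes were called in it, against 0.0321% with every library. Without immature male 1 or without immature male 3 the quasi-likelihood test called no trypsin gene in this comparison. Gene019687, another match to phenoloxidase-activating factor 2, had 57.9 CPM in immature male 3 and 20.8 in immature female 2 and 0.812 to 5.14 CPM elsewhere. Mature against immature brains over both sexes gave a log2 difference of -3.41 (SE 0.87, adjusted p = 0.211, edgeR).

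The opposite order, low in immature males 1 and 3, was seen in 7 of the 66 genes (10.6%) and in 4.76% of all tested genes. They were Gene003540, Gene009153, Gene010278, Gene016686, Gene020293, Gene020614 and Gene023924, and 4 of them match horseshoe crab or beetle cascade proteases. Gene009153, matching phenoloxidase-activating factor 2, had 25.9 and 69.2 CPM in mature males, 56.4, 33.8 and 32.6 in mature females, 4.35, 101 and 3.27 in immature males, and 37.2 and 62.8 in immature females. Gene003540, a clotting factor B match, had 3.64 and 15.8 CPM in mature males, 7.07 to 8.94 in mature females, 0.988, 20.0 and 1.05 in immature males, and 7.57 and 8.53 in immature females. The widest gap thus lay between immature male 2 and the other immature males. For mature against immature males Gene009153 had a log2 difference of 0.39 (SE 1.20, adjusted p = 0.968, edgeR), and of 3.65 without immature male 2, where it was called (adjusted p = 0.0468). In that setting 0.45% of all tested genes were called, against 0.00802% with every library. Without immature male 1 or without immature male 3 no trypsin gene was called in males. All of the 7 genes except Gene016686 and Gene020293 were picked after their values were seen.

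Gene020293 is named after Corin, which activates natriuretic peptides in mammals. It had 4.66 and 10.2 CPM in mature males, 10.7, 9.53 and 6.59 in mature females, 1.58, 10.7 and 0.467 in immature males, and 64.2 and 11.5 in immature females. Male against female in immature brains the log2 difference was -3.17 (SE 1.07, adjusted p = 0.684, edgeR), and it ran from -5.28 to -1.45 without 1 library. Gene016686, with a match to U21-ctenitoxin-Pn1a of a Brazilian wandering spider, had 3.08 and 2.17 CPM in mature males, 2.36, 5.84 and 3.16 in mature females, 0.593, 2.84 and 1.87 in immature males, and 2.81 and 5.36 in immature females.

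**Figure D5:**
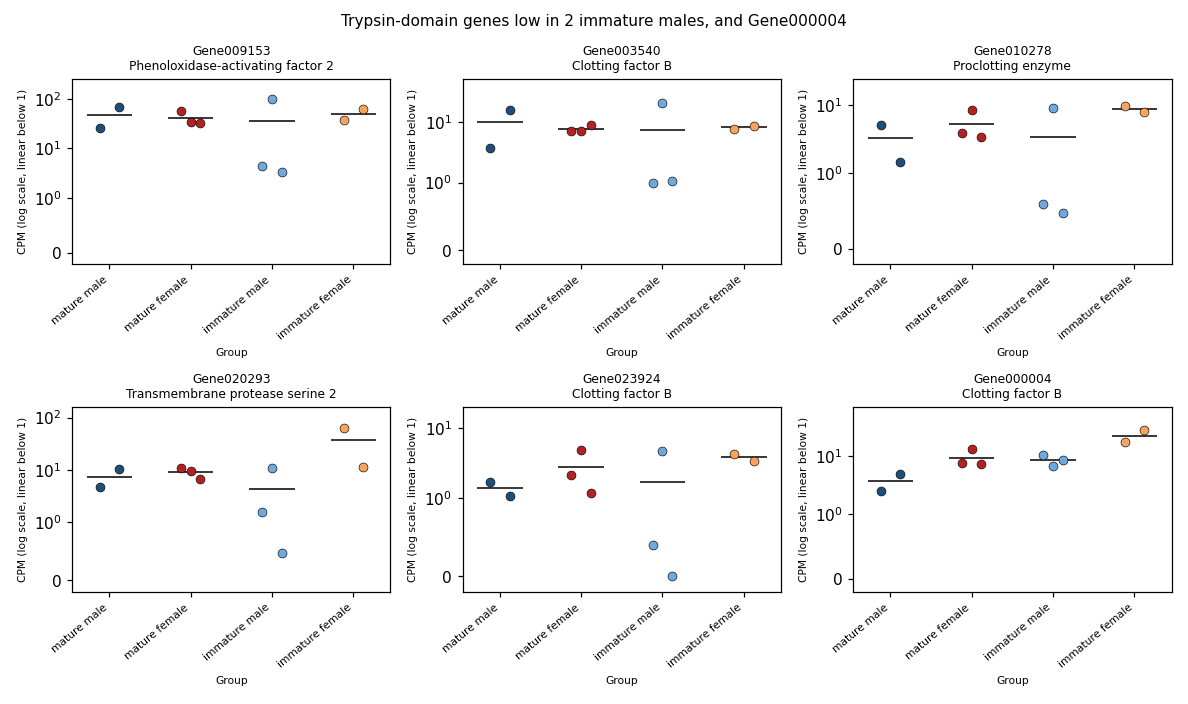
CPM by group (log scale above 1 CPM, linear below) of 5 trypsin-domain genes that were lowest in immature males 1 and 3 and of Gene000004. Points are libraries and horizontal lines are group means. For Gene009153 the immature males lie at 4.35, 101 and 3.27 CPM, and for Gene000004 the mature males lie lowest and the immature females highest.

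Some members varied less than the median tested gene. Gene006720 matches HTRA2, a protease of the mitochondrial intermembrane space, and had 10.6 and 9.25 CPM in mature males, 12.9, 12.3 and 11.4 in mature females, 15.0, 12.4 and 12.9 in immature males, and 12.8 and 11.6 in immature females. Gene002743 (elastase match, named after grass, a Toll pathway protease) ran from 12.0 to 18.6 CPM and had the smallest range of the tested members, 0.62 on the log2 scale, against 0.68 for Gene006720. Gene015205, whose frizzled and scavenger receptor domains are those of Corin, ran from 17.9 to 39.4 CPM, a range of 1.13. Gene002743 overlaps 1 other counted gene on its contig and Gene015205 overlaps 3. The part of these overlaps in their counts was not tested. Other named members varied more. Gene019490, also named after Corin, ran from 4.87 to 23.4 CPM, a range of 2.21 on the log2 scale. Gene003512, matching complement factor B, had 111 CPM in mature male 2 and 14.3 in mature male 3, so its extremes included both mature males. Gene021769, matching crayfish trypsin, was highest in immature female 2 at 11.6 CPM. The grass match Gene023217 and the Stubble-named Gene023000 had 0.672 and 0.676 CPM on average and were not tested.

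Outside the calls in mature males, the quasi-likelihood test of edgeR called no trypsin gene, while other tests called some. For mature against immature in females none of 61 was called (0.0% of all tested genes were), and 13 (21.3%) had a p under 0.05 before adjustment, against 10.5% of all tested genes. The likelihood ratio test called 1 of them (1.18% of all tested genes) and DESeq2 called 1 (1.52%). Over both sexes there was no call (0.0%), with 17 (27.9%, against 15.1%) at p under 0.05 before adjustment, 10 called by likelihood ratio (2.59%) and 9 called by DESeq2 (2.99%). Of those 10, Gene013935, Gene013936, Gene016152 and Gene025438 were higher in mature brains, and Gene000004, Gene001972, Gene005449, Gene019687, Gene023408 and Gene024126 were lower.

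Male against female in immature brains gave no call (0.0321% of all tested genes), 14 genes (23.0%, against 6.01%) at p under 0.05 before adjustment, 2 calls by likelihood ratio (0.566%) and 4 calls by DESeq2 (0.983%). With the stages averaged there was no call between the sexes (0.0401%), with 12 (19.7%, against 4.45%) at p under 0.05 before adjustment and 3 and 4 calls by those tests (0.377 and 0.516%). For the interaction of stage and sex there was none (0.0%), with 12 (19.7%, against 3.2%) at p under 0.05 before adjustment and 4 calls by each of those tests (0.0562 and 0.125%). In the comparisons that did give calls, the likelihood ratio test called 5 genes in males (0.517%) and 5 in mature brains (0.181%), and DESeq2 called 7 (1.03%) and 5 (0.277%).

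In direction, 51 of the 61 tested genes had a negative fold change for mature against immature females, with a median log2 value of -0.84 against -0.02 over all tested genes. Without immature female 2 it was 38 of 65 genes and a median of -0.24, and without immature female 3 it was 44 of 63 and -0.89. By class, the 18 tested cascade matches had a median of -0.91 in females and -0.23 in males, and the 20 cell surface and developmental matches had -0.88 and -1.61. In mature brains the median of all 61 for male against female was -0.01, and 30 were positive. These comparisons share libraries, and the genes of a class are not independent of each other.

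Genes that block these proteases, or act after them, gave no call, which is near the share over all tested genes. None of 82 inhibitor genes (23 serpin, 17 Kunitz, 31 Kazal, 11 trypsin inhibitor-like, 3 alpha-2-macroglobulin, with some genes in more than 1 family) passed the quasi-likelihood test of edgeR in any comparison. That test called 0.0 to 0.0401% of all tested genes per comparison, so lists of this size would hardly be expected to hold a call. For mature against immature over both sexes 24 of them (29.3%, against 15.1% of all tested genes) had p under 0.05 before adjustment and 3 were called by the likelihood ratio test, where 2.59% of all tested genes were, with a median log2 fold change of -0.28 against -0.02 over all tested genes. For male against female in mature brains 3 had p under 0.05 before adjustment (3.66%, against 2.47%), none was called by the likelihood ratio test, and the median was -0.13. Among 12 genes with a Spaetzle domain and 12 with the TIR domain of Toll-type receptors there was no call either, again near that share. In the Spaetzle genes the median log2 difference was 0.70 for mature against immature females and -1.48 for mature against immature males, with 3 and 1 of 12 at p under 0.05 before adjustment (25.0 and 8.33%, against 10.5 and 7.44% of all tested genes) and 2 and 0 calls by the likelihood ratio test (against 1.18 and 0.517%). Of 64 tested digestive enzymes of other families, none passed the quasi-likelihood test in any comparison, which is also near its share over all tested genes. The likelihood ratio test called 1 in females, 3 over both sexes and 1 between the sexes over both stages, where it called 1.18, 2.59 and 0.377% of all tested genes.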

How the data were processed

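mRNA of 10 brains was sequenced as paired-end Illumina reads. The authors trimmed reads (Trimmomatic 0.32 per the labels), assembled them with Trinity and CAP3, predicted coding sequences, clustered these into genes, aligned reads with BWA-MEM (0.6.1-r104) and deposited read counts per gene without normalization, from 3481348 to 11789754 per library. Strand, mates and reads on several genes are not given in the sources used here. In 14278 of 25943 rows of the deposited annotation the entries stood 1 column to the left and were moved back. Immature female 1 and mature male 1 were left out by the study for low coverage and are not analysed here.

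The analysis ran on the deposited counts in edgeR 4.0.16 (main test) and DESeq2 1.42.0 under R 4.3.3. After filterByExpr (minimum count 10), 24930 of 25922 genes and 61 of the 66 members were tested. The quasi-likelihood test used TMM scaling and 4 group means over 10 libraries, without other terms (common dispersion 0.209). Adjusted p under 0.05 was the threshold. The study's function, the likelihood ratio test, was an alternative, with DESeq2, RLE scaling, a fit of all genes, a fit of genes averaging 1 CPM or more, a replicate block and each library left out. Intervals of ratios are exact at 95%. The code of both edgeR tests was checked on simulated counts with large changes only, which says nothing about smaller changes. Each group holds 2 or 3 spiders, which limits precision. The members and the gene lists were chosen with earlier results of these data known. Named genes are members called by either edgeR test, the lowest p per comparison and direction, the 5 most abundant (also per kb), the 3 most variable, and members named after a set list of Drosophila proteases. Others were chosen after their values were seen.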

Additional observations from a re-analysis of the deposited data

Results flagged for a closer look

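Immature female 2 had 0.287% of its reads on the 66 trypsin genes. Its gap to the next library was 0.862 of the whole range among the 5 immature libraries and 0.951 among the 5 female libraries, above the critical value of 0.71 for 5 values. Altogether 8 ends of 4 sets of 5 libraries were checked, and chance alone flags about 1 set in 20. Gene002109 and Gene017787 made up 59.8% of these reads.

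The effect of maturity differed between males and females for 4 genes in edgeR's likelihood ratio test of the interaction, which takes the log2 fold change in males minus that in females. The interaction was 9.48 for Gene013935, 11.18 for Gene013936, 9.53 for Gene025438 and 13.78 for Gene025662. The quasi-likelihood test of edgeR called none of them (adjusted p = 1.0 each), so the difference holds in only 1 of the edgeR tests. For Gene025662 it rests on immature female 2, since the quasi-likelihood value of 13.72 ran down to 4.21 when a library was left out.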

How the results depend on the processing

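The count of trypsin genes called depended on the test and on single libraries, and the cause was not tested. The likelihood ratio test called 1 for mature against immature in females, 5 in males, 10 over both sexes, 2 for male against female in immature brains, 5 in mature brains, 3 over both stages and 4 for the interaction. DESeq2 called 1, 7, 9, 4, 5, 4 and 4 in the same order. Leaving out each library in turn gave 0 to 1, 0 to 7, 0 to 5, 0 to 5, 0 to 4, 0 to 1 and 0 to 1. Fits without an immature female or a mature male keep 1 library of that group, whose spread then no longer enters them. In males the count was 0 without immature male 1 or 3 and 7 without immature male 2 (11.5%, against 0.45% of all tested genes). Without immature male 2 it was also 5 over both sexes (8.2%, against 1.17%) and 5 between the sexes in immature brains (8.2%, against 0.542%), so more genes of the whole table were called there too, and without mature female 1 it was 0 in mature brains. RLE scaling, no filter and a mean of at least 1 CPM kept the counts within 1.5 times. The replicate numbers come from different spiders and did not pair the samples (correlations of same-numbered deviations from -0.361 to 0.302), and with the replicate block 0 genes were called in males and 0 in mature brains. The share of reads moved to 0.0722% (members overlapping no other gene) and 0.0932% (TMM library size) in mature females and to 0.076% (no overlap) in immature males. Of 830 alternatives for the named genes, 739 kept direction and side of the threshold, 67 passed it, 18 lost it and 6 turned the sign. Without immature female 2 the male against female log2 difference in immature brains turned in Gene002109 (range without 1 library -3.55 to 3.02), Gene017787 (-3.29 to 2.80) and Gene025662 (-7.08 to 3.44), that over both stages in Gene021769 (-2.47 to 0.00), and mature against immature over both sexes in Gene021929 (-2.49 to 1.07). Without mature male 2 it turned in mature brains in Gene003512 (-1.47). The count of genes lower in mature females, 51, was 38 to 54, an alternative chosen after seeing the data.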
